A study of Mus musculus with 27 samples.

Results

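Copines form a family of 9 genes in the mouse, Cpne1 to Cpne9, and all 9 were found by symbol among the 30735 genes of the deposited count table. Estimated counts of a gene's transcripts, 3 to 18 per copine, were summed, and all 9 genes passed the filter on low counts in the retinal and the brain tests. Cpne4, Cpne9 and full-length Cpne8 had the widest differences between captured retinal cells of Brn3a or Brn3b heterozygotes and uncaptured cells at postnatal day 3. In captured cells of Brn3b knockouts at that age, Cpne9 was the 1 copine called above uncaptured cells. That call did not hold in every fit tried. Captured libraries held more RNA of microglia and macrophage markers than uncaptured ones. The part of such cells in the copine differences was not tested.

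Copines are soluble proteins that move to membranes when calcium rises. A pair of C2 domains at one end binds phospholipid in the presence of calcium, and an A domain at the other end, related to the ligand-binding domain of integrins, binds other proteins. Retinal ganglion cells (RGCs) are the neurons whose axons form the optic nerve, and their differentiation and survival need the POU-domain factors Brn3a, encoded by Pou4f1, and Brn3b, encoded by Pou4f2.

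The study holds 27 RNA libraries, all of C57Bl/6 mice. In the retina, cells that carry alkaline phosphatase (AP) on their surface from an AP allele at either Brn3 locus were bound to anti-AP beads, and the unbound remainder was kept as a control. The AP-positive groups were Brn3a KO and Brn3a HET at postnatal day 3 (P3), Brn3b KO and Brn3b HET at P3, and Brn3b KO and Brn3b HET at embryonic day 15 (E15), with 2 libraries each. KO stands for the AP/KO genotype and HET for AP/WT, so every retinal library, unbound ones included, came from a mouse with an AP allele. Which cells the AP allele was switched on in, and how, is not given in the sources used here. Each of the 6 combinations also has 1 unbound library, and these were pooled over genotypes into 4 unbound libraries at P3 and 2 at E15. From wild-type P3 brain, with RGC axons traced by cholera toxin B injected into the eyes, there are 3 libraries of the superior colliculus (SC) and 3 of the lateral geniculate nucleus (LGN), which both receive RGC axons, 1 of the pretectal area (PTA), and 2 labelled whole brain that the protocol describes as the pooled remaining sections, called remaining brain here.

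Total estimated counts per library ran from 28905675 to 37394655 for retinal and from 10122962 to 13769685 for brain samples. Levels are given as CPM, counts scaled by TMM library size, separately for retina and brain. No label says that the retinal libraries of a group came from separate animals, so p-values measure the spread between libraries, which may be technical. The title of Brn3a KO replicate 2 names Brn3a and its genotype entry names Brn3b. In that library Pou4f1 was at 11.0 CPM and Pou4f2 at 268 CPM, against 16.7 and 391 CPM in Brn3a KO replicate 1 and 18.6 to 21.0 CPM of Pou4f2 in the Brn3b KO P3 libraries, and it is kept as Brn3a KO. The 14 microglia and macrophage markers, all above 0 in every AP-positive library, summed to 823 to 4667 CPM in AP-positive libraries, against 8.82 to 32.4 CPM in unbound libraries. The 18 RGC markers, Pou4f1 and Pou4f2 among them, summed to 1997 to 13465 CPM in AP-positive libraries, against 977 to 4296 CPM in unbound libraries. Their part in the copine differences between these fractions was not tested. In bulk RNA, fewer cells of a type and less RNA per cell cannot be told apart.

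In the Ensembl annotation of GRCm38 the copines lie apart from each other, on 8 chromosomes. The minus strand holds Cpne1 (chr2:156071842-156111965), Cpne3 (chr4:19519254-19570108), Cpne5 (chr17:29156550-29237797) and Cpne8 (chr15:90487482-90679432). The plus strand holds Cpne2 (chr8:94532990-94570529), Cpne4 (chr9:104547286-105034544), Cpne6 (chr14:55510445-55517431), Cpne7 (chr8:123117374-123135182) and Cpne9 (chr6:113282307-113305627).

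Levels of different copines were compared per transcript length, as length-scaled CPM. In Brn3a HET cells at P3, Cpne4 was at 166 ± 19.3, full-length Cpne8 at 65.3 ± 1.09, Cpne9 at 43.4 ± 0.69 and Cpne5 at 41.8 ± 3.88 (SD, n = 2). Cpne3, Cpne1, Cpne6, Cpne2 and Cpne7 followed at 11.2, 7.91, 5.83, 2.61 and 0.917. Cpne9 and Cpne5 did not differ beyond their spread. In unbound cells at P3 Cpne3 was at 23.9 ± 1.46, Cpne5 at 12.8 ± 5.31, full-length Cpne8 at 9.20 ± 2.77 and Cpne4 at 8.58 ± 3.98 (SD, n = 4). The full-length forms of Cpne8 stand for the gene here, a choice made after its transcript shares had been seen. With its short transcripts, whose few bases raise a value per length, the Cpne8 gene was at 114 ± 11.7 in Brn3a HET cells, below Cpne4, and at 148 ± 35.0 in unbound P3 cells, above the other 8 copines.

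**Figure D1:**
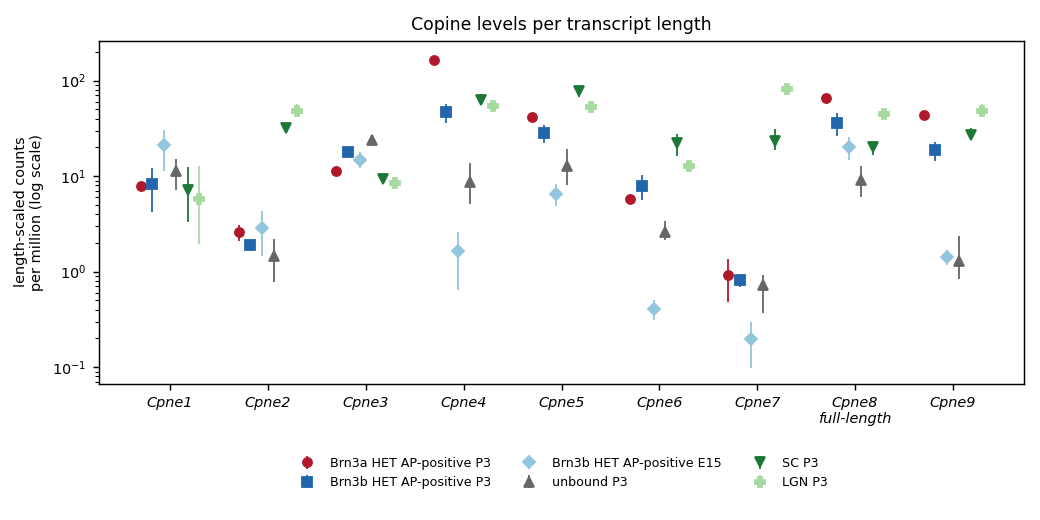
Length-scaled CPM (log scale) of each copine in 6 groups of libraries. Points are group means and bars run from the lowest to the highest library. Cpne4 in Brn3a HET cells, at 166, was the highest point, and Cpne7 was high in the brain and below 2 in every retinal group shown.

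The promoters of the copines that changed most between fractions are shown so that their base composition can be set beside the values. RefSeq start sites (GRCm38.p6) gave 300-base windows, 250 bases before to 50 after the start, for 6 of the 9 copines. Capitals mark AATTAAT, the core of the site bound by Brn3 proteins, searched on both strands (AATTAAT and ATTAATT).
Cpne4 promoter, chr9:104569405-104569704, plus strand: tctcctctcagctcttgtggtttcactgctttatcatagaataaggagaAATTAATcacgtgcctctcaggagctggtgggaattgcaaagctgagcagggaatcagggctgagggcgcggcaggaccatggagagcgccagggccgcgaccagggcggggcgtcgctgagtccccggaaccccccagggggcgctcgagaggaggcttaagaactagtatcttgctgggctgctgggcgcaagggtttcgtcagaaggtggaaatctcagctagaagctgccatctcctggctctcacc
Cpne8 promoter, chr15:90679339-90679638, minus strand: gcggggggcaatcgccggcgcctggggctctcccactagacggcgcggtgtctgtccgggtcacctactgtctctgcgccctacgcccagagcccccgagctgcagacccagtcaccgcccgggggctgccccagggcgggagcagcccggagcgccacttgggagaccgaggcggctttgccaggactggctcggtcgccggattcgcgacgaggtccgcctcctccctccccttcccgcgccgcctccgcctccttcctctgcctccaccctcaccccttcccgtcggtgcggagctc
Cpne9 promoter, chr6:113282057-113282356, plus strand: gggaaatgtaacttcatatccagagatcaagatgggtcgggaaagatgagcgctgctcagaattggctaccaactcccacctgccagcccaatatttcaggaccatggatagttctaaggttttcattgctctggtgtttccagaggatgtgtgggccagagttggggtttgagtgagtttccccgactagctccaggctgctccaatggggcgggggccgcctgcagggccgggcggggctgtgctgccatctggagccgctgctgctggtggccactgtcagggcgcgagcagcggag
The Cpne4 window held 1 match and a second Cpne4 window none. The windows of Cpne1, Cpne2, Cpne5, Cpne8 and Cpne9 held none, and 2.63% of all 32851 windows of this length held the letters. GC content was 58.7% in the Cpne4 and Cpne9 windows shown, 56.0% in the second Cpne4 window and 57.0% in Cpne1, against 73.7% in Cpne8, 74.7% in Cpne5 and 76.0% in Cpne2. The windows of Cpne8, Cpne4 and Cpne9 that are shown had 32, 14 and 11 CpG sites, and the second Cpne4 window had 1. A match describes these letters and is not evidence of binding.

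AP-positive cells from Brn3a HET retinas at P3 carried more RNA of 5 copines than unbound cells and less of 1. The 5 were Cpne4, Cpne9, Cpne5, Cpne8 and Cpne6, and the 1 was Cpne3. The background was high: 56.5% of all 16954 genes tested were called in this comparison, 28.8% higher and 27.7% lower (edgeR quasi-likelihood test, Benjamini-Hochberg adjusted p under 0.05). The copines' median log2 fold change was 1.10, against -0.03 over all genes tested.

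Cpne4 is a copine of the nervous system. It was at 371 and 306 CPM in Brn3a HET cells, against 9.36, 11.1, 18.4 and 27.2 CPM in the 4 unbound libraries. Both Brn3a HET libraries stood far above every unbound P3 library, and the unbound libraries left by Brn3b capture, at 18.4 and 27.2 CPM, were above those left by Brn3a capture. The log2 fold change was 4.36 ± 0.49 (SE; edgeR adjusted p = 5.65e-06).

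Cpne9 had the widest ratio. It was at 48.1 and 40.6 CPM in Brn3a HET cells, against 1.13, 1.13, 1.45 and 2.82 CPM in unbound cells. Groups did not overlap, and the log2 fold change was 4.76 ± 0.36 (edgeR adjusted p = 1.65e-07). In Brn3b HET cells Cpne9 was at 19.4 and 23.5 CPM, a log2 fold change of 3.72 ± 0.35 over the same unbound libraries (edgeR adjusted p = 2.61e-06).

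Cpne5 was at 44.2 and 47.5 CPM in Brn3a HET cells, against 11.4 to 24.2 CPM in unbound cells, a log2 fold change of 1.31 ± 0.29 (edgeR adjusted p = 0.00164). Cpne6, also called N-copine and known from forebrain neurons where it acts in dendritic spines, was low in all retinal libraries. It was at 7.97 and 7.01 CPM in Brn3a HET cells, against 3.01, 3.07, 3.28 and 4.65 CPM in unbound cells (log2 fold change 1.10 ± 0.33, edgeR adjusted p = 0.0120). Neither gene's groups overlapped, and both differences were much smaller than those of Cpne4 and Cpne9. Without Brn3a HET replicate 1 the Cpne6 call was lost (adjusted p = 0.0904). With the most abundant transcript in place of the gene sum neither call held, at 0.55 for Cpne5 and 0.98 for Cpne6 (edgeR adjusted p = 0.153 and 0.126).

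Cpne3, a widely expressed copine that binds the receptor ErbB2, ran the other way. It was at 31.9 and 36.3 CPM in Brn3a HET cells, against 62.7 to 72.9 CPM in unbound cells, and fell by 0.99 ± 0.18 on the log2 scale (edgeR adjusted p = 0.000369). Cpne1, Cpne2 and Cpne7 were not called: their means were 10.3, 3.03 and 1.37 CPM in Brn3a HET cells, against 7.94, 1.54 and 1.13 CPM in unbound cells.

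Brn3b HET cells at P3 had 4 copines higher than unbound cells and none lower, where 33.2% of genes were called, 19.6% higher and 13.6% lower. Cpne4 was at 73.1 and 113 CPM in Brn3b HET cells, above all 4 unbound libraries, with a log2 fold change of 2.49 ± 0.47 (edgeR adjusted p = 0.00121). Cpne6 rose at 1.49 ± 0.33 and Cpne8 at 0.68 ± 0.21 on the log2 scale (edgeR adjusted p = 0.00359 and 0.0226). Cpne6 lost its call without Brn3b HET replicate 2 (adjusted p = 0.114) or with the most abundant transcript alone (1.16, adjusted p = 0.108), and Cpne8 lost it without that library or any of 3 unbound libraries.

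Brn3a KO cells had 4 copines higher and 1 lower than unbound cells, where 54.1% of genes were called, 27.5% higher and 26.6% lower. Cpne9 was at 34.0 and 21.6 CPM and Cpne4 at 140.2 and 115 CPM in Brn3a KO cells, both above every unbound library. Their log2 fold changes over unbound cells were 4.09 ± 0.35 for Cpne9 and 2.95 ± 0.47 for Cpne4 (edgeR adjusted p = 6.46e-07 and 0.000144). Cpne5 and Cpne8 rose, with log2 fold changes of 0.96 ± 0.29 and 1.23 ± 0.21, and Cpne3 fell by 0.76 ± 0.18 on the log2 scale (edgeR adjusted p = 0.0135, 0.000205 and 0.00269). Without Brn3a KO replicate 1, so resting on the library with conflicting labels, Cpne5 and Cpne3 were not called (adjusted p = 0.187 and 0.0516), and with the most abundant transcript alone Cpne5 was at 0.30 (adjusted p = 0.454).

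Brn3b KO cells at P3 differed from unbound cells in 1 copine, against 6.75% of genes called, 5.23% higher and 1.52% lower. Cpne9 was at 5.30 and 4.67 CPM in Brn3b KO cells, above the unbound 1.13 to 2.82 CPM, with a log2 fold change of 1.61 ± 0.35 (edgeR adjusted p = 0.0113). That call was lost without Brn3b KO replicate 1 (adjusted p = 0.0952) and with the compared groups alone in the fit (adjusted p = 0.0591). The most abundant Cpne9 transcript had the opposite sign (-2.44, adjusted p = 0.335). Cpne4, at 22.9 and 32.9 CPM in Brn3b KO cells, overlapped the unbound range of 9.36 to 27.2 CPM. These comparisons and those of the other AP-positive groups share the same 4 unbound libraries. RGC markers summed to 1997 to 2311 CPM in Brn3b KO cells, against 977 to 1788 CPM in unbound P3 cells. Of the 18 RGC markers 0 were called, with a median log2 fold change of 0.76. All 14 microglia and macrophage markers were called higher in Brn3b KO cells. The part of either cell type in the Cpne9 difference was not tested.

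**Figure D2:**
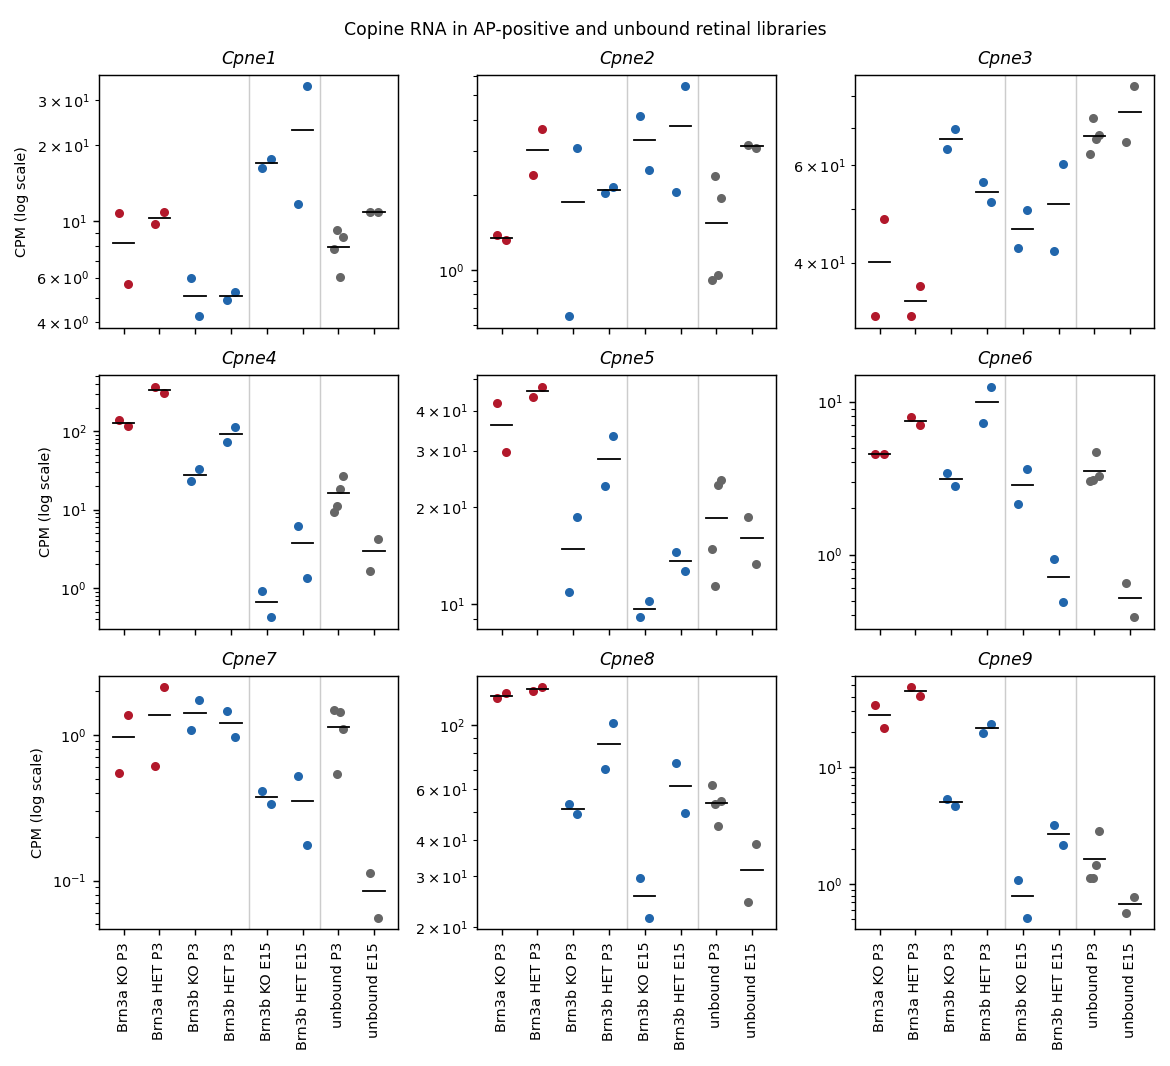
CPM (log scale) of each copine in every retinal library. Points are libraries, horizontal lines are group means, red marks Brn3a and blue Brn3b AP-positive groups, and grey marks unbound cells. Cpne4 and Cpne9 spanned the widest ranges, from 0.428 to 371 CPM for Cpne4.

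Cpne8 sums hid a difference between transcripts. The 5 annotated Cpne8 transcripts fall into full-length forms of 19 and 20 exons (Cpne8-001 and Cpne8-003) and short forms of 3 or 4 exons that end before the fourth exon of the full-length forms (Cpne8-002, Cpne8-004 and Cpne8-005). The split was made after the transcript shares had been seen. One short form, the 537-base Cpne8-005, is annotated as a processed transcript and begins inside the first intron of the full-length gene with a 64-base exon of its own. That exon is shown because it is absent from the full-length forms, and no capitals are used in it.
Cpne8-005 exon 1, chr15:90649375-90649438, minus strand, GRCm38: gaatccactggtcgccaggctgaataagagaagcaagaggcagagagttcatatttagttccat
Short forms made up 10.1% and 13.0% of Cpne8 counts in Brn3a HET cells, against 59.7%, 63.3%, 78.5% and 81.5% in the unbound P3 libraries. The shares did not overlap. In Brn3a KO cells they were 16.9% and 22.0%, in Brn3b KO cells at P3 76.4% and 60.0%, and in Brn3b HET cells at P3 31.7% and 22.1%.

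Full-length Cpne8 was at 117 and 118 CPM in Brn3a HET cells, against 9.90, 13.3, 16.5 and 22.1 CPM in unbound cells. That is a log2 fold change of 2.91 ± 0.31 (edgeR adjusted p = 3.69e-06), where the whole gene was 2.47-fold higher (edgeR adjusted p = 0.000109). Short forms went the other way, at 13.1 and 17.6 CPM in Brn3a HET cells, against 28.4 to 48.8 CPM in unbound cells, and fell by 1.34 ± 0.27 on the log2 scale (edgeR adjusted p = 0.000825). The same opposite directions were called for Brn3b HET cells, with full-length forms at 2.01 ± 0.31 and short forms at -0.82 ± 0.27 (edgeR adjusted p = 0.000255 and 0.0291), and for Brn3a KO cells, at 2.70 ± 0.31 and -0.67 ± 0.26 (edgeR adjusted p = 8.47e-06 and 0.0453). In unbound P3 libraries short forms were at 48.8 and 43.5 CPM after Brn3a capture and at 28.4 and 32.7 CPM after Brn3b capture. Brn3b HET cells had them at 22.3 and 22.5 CPM. For the split forms no library was left out and no other setting was tried. Assignment of reads to transcripts is an estimate, and reads in exons common to both classes cannot be told apart.

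**Figure D3:**
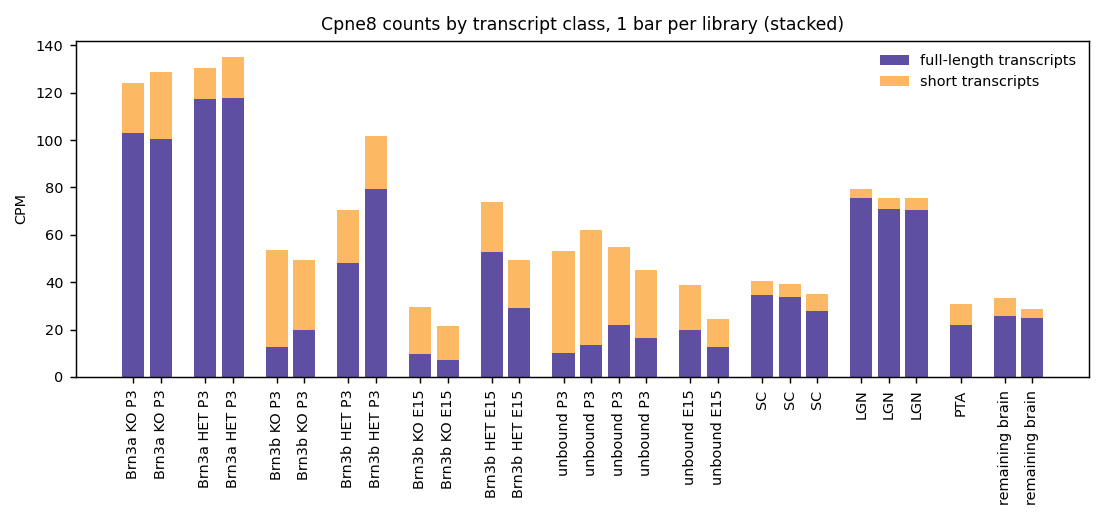
Cpne8 CPM in every library, stacked by transcript class, with 1 bar per library. Full-length forms reach 118 CPM in Brn3a HET cells and 22.1 CPM or less in the unbound P3 libraries, and short forms take most of the Brn3b KO bars.

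Loss of Brn3a at P3 called none of the 9 copines, where 3 of 16673 genes (0.018%) were called between Brn3a KO and Brn3a HET cells, 0.012% higher and 0.006% lower. Pou4f1 itself fell by 5.06 ± 0.56 on the log2 scale (edgeR adjusted p = 0.0258). By unadjusted p under 0.05, 1 of the 9 gene sums differed, Cpne4, as did 432 of the 16673 genes tested. DESeq2 called 0 copines. Cpne4 was at 140.2 and 115 CPM in Brn3a KO cells, against 371 and 306 CPM in Brn3a HET cells, with a log2 fold change of -1.39 ± 0.48 (edgeR adjusted p = 1). These groups did not overlap, but groups this small often part without a true difference. Full-length Cpne8 was at 103 and 100.5 CPM in Brn3a KO cells, against 117 and 118 CPM in Brn3a HET cells. Short Cpne8 forms were at 21.0 and 28.3 CPM in Brn3a KO cells, against 13.1 and 17.6 CPM in Brn3a HET cells (log2 fold change 0.69 ± 0.24, unadjusted p = 0.0185, edgeR adjusted p = 1).

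Loss of Brn3b at P3 called 1 copine, Cpne9, between Brn3b KO and Brn3b HET cells, where 3.41% of genes were called, 0.264% higher and 3.15% lower. Cpne9 was at 5.30 and 4.67 CPM in Brn3b KO cells, against 19.4 and 23.5 CPM in Brn3b HET cells. It fell by 2.09 ± 0.33 on the log2 scale (edgeR adjusted p = 0.0197). The call was lost without either Brn3b KO library or Brn3b HET replicate 2 (adjusted p = 0.125, 0.116 and 0.179), with the compared groups alone (adjusted p = 0.0625) and with the most abundant transcript (adjusted p = 0.0504). Full-length Cpne8, tested as a gene of its own, was at 12.6 and 19.7 CPM in Brn3b KO cells, against 48.0 and 79.1 CPM in Brn3b HET cells, and fell by 1.97 ± 0.33 (edgeR adjusted p = 0.0196). Short Cpne8 forms were at 40.8 and 29.5 CPM in Brn3b KO cells, against 22.3 and 22.5 CPM in Brn3b HET cells, without a call (edgeR adjusted p = 0.177).

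Another 4 copines had an unadjusted p under 0.05 in this comparison and missed the adjusted threshold. Over all 16673 genes tested, 3191 had an unadjusted p under 0.05. Cpne4 was at 22.9 and 32.9 CPM in Brn3b KO cells, against 73.1 and 113 CPM in Brn3b HET cells (log2 fold change -1.73 ± 0.49, edgeR adjusted p = 0.0883). Cpne6 was at 3.44 and 2.79 CPM in Brn3b KO cells, against 7.19 and 12.5 CPM in Brn3b HET cells (log2 fold change -1.65 ± 0.41, edgeR adjusted p = 0.0592). Neither gene's groups overlapped, but groups this small often part without a true difference. Cpne5 and the Cpne8 gene sum had log2 fold changes of -0.93 ± 0.28 and -0.73 ± 0.23 (edgeR adjusted p = 0.115 and 0.121). Cpne1, Cpne2, Cpne3 and Cpne7 had unadjusted p above 0.05. DESeq2 called 4 of the 9 copines here, and edgeR without the low-count filter called 3. Shares over all genes in those fits are not given here, so the counts are not a result about copines as a family. The copines' median log2 fold change was -0.73, against 0.01 over all genes. RGC markers summed to 1997 to 2311 CPM in Brn3b KO cells, against 4769 to 6832 CPM in Brn3b HET cells, and microglia markers to 1241 to 1600 CPM in Brn3b KO cells, against 2645 to 3203 CPM in Brn3b HET cells. Their part in the copine differences was not tested.

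Loss of Brn3b at E15 called Cpne8, against 1.85% of genes called, 0.666% higher and 1.18% lower. Cpne8 was at 29.6 and 21.6 CPM in Brn3b KO cells, against 73.8 and 49.5 CPM in Brn3b HET cells, and fell by 1.27 ± 0.23 on the log2 scale (edgeR adjusted p = 0.0279). The full-length forms fell by 2.29 ± 0.34 (edgeR adjusted p = 0.0107), to 9.62 and 7.13 CPM in Brn3b KO cells, against 52.8 and 29.2 CPM in Brn3b HET cells. Short forms were at 20.0 and 14.5 CPM in Brn3b KO cells, against 21.0 and 20.3 CPM in Brn3b HET cells (edgeR adjusted p = 0.765). The Cpne8 gene call was lost without Brn3b HET replicate 1 or either Brn3b KO library (adjusted p = 0.143, 0.0509 and 0.221), with the compared groups alone (adjusted p = 0.263) and with the most abundant transcript (adjusted p = 0.0902).

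Another 3 copines had an unadjusted p under 0.05 at E15 and missed the adjusted threshold. Over all 16673 genes tested, 1951 had an unadjusted p under 0.05. Cpne9 was at 1.08 and 0.519 CPM in Brn3b KO cells, against 3.17 and 2.17 CPM in Brn3b HET cells (log2 fold change -1.74 ± 0.38, edgeR adjusted p = 0.0516). Cpne4 was at 0.919 and 0.428 CPM in Brn3b KO cells, against 6.10 and 1.36 CPM in Brn3b HET cells (log2 fold change -2.47 ± 0.66, edgeR adjusted p = 0.118). Cpne6 was at 2.12 and 3.61 CPM in Brn3b KO cells, against 0.941 and 0.489 CPM in Brn3b HET cells (log2 fold change 2.00 ± 0.44, edgeR adjusted p = 0.0540). None of these groups overlapped, but groups this small often part without a true difference. The share of all genes whose groups parted was not counted. DESeq2 called 4 copines here, and edgeR without the filter also 4. For those fits the share over all genes is not given.

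Telencephalic markers moved with Cpne6 at E15. The list of 9 summed to 426 and 431 CPM in Brn3b KO cells, against 91.7 to 105 CPM in Brn3b HET cells, with at least 7 markers above 0 in each library. The difference lay in Dlx1 and Dlx2, which the developing retina also expresses. Dlx1 was at 280.3 and 282 CPM in Brn3b KO cells, against 41.0 and 39.0 CPM in Brn3b HET cells. The cortical markers Neurod6 and Emx1 were each at 0 in 1 Brn3b KO library and at or below 0.127 CPM in the other. Amacrine markers summed to 454 to 531 CPM in Brn3b KO cells, against 159 to 177 CPM in Brn3b HET cells. Their part in the Cpne6 difference was not tested.

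The log2 fold change of Cpne6 with Brn3b loss was -1.65 at P3 and 2.00 at E15, neither of them called. The difference of the effects, P3 minus E15, was -3.65 ± 0.60 on the log2 scale (edgeR adjusted p = 0.0626), which missed the threshold, where 0.192% of genes passed, 0.006% higher and 0.186% lower. By unadjusted p under 0.05 Cpne6 was the 1 copine of 9, where 1962 of 16673 genes passed. DESeq2 and edgeR without the filter each called 1 copine, with the share over all genes in those fits not given. The difference between Brn3b loss and Brn3a loss at P3 called 0 copines by edgeR and 0 by DESeq2, where 0.012% of genes passed, 0.006% in each direction. Among the 9 gene sums Cpne9 alone had an unadjusted p under 0.05 (-1.43 ± 0.45, edgeR adjusted p = 0.316), where 1471 of 16673 genes did. Full-length Cpne8, tested as a gene of its own, was at -1.77 ± 0.45 in the same test (unadjusted p = 0.00307, edgeR adjusted p = 0.218). For no copine was a different response to the loss of either factor shown.

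**Figure D4:**
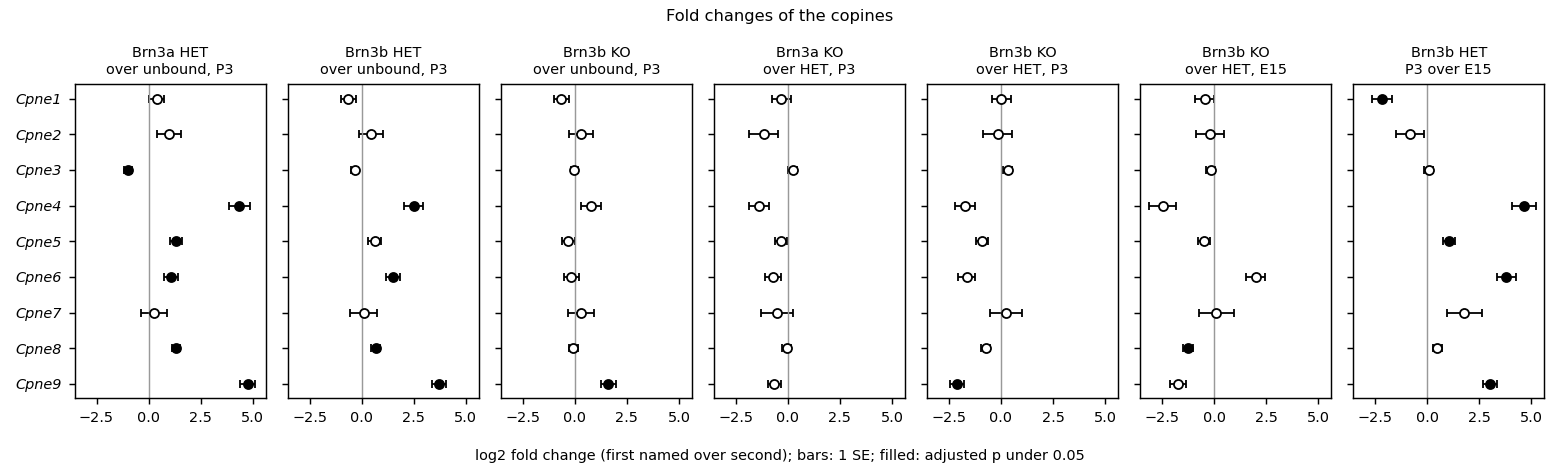
Log2 fold changes of the 9 copines in 7 comparisons, first-named group over the second. Bars are 1 SE and filled points have an adjusted p under 0.05. Cpne9 was filled in 5 of the 7 panels, and in the panels of Brn3b KO over Brn3b HET 1 copine was filled at each age.

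Brn3b cells were set against Brn3a cells at P3. Between Brn3b HET and Brn3a HET cells edgeR called 0 copines, against 3.85% of genes, 2.03% higher and 1.82% lower. An unadjusted p under 0.05 was found for 5 copines and for 4793 of the 16673 genes tested. DESeq2 called 4 copines, and its share over all genes is not given. Cpne4 was at 73.1 and 113 CPM in Brn3b HET cells, against 371 and 306 CPM in Brn3a HET cells (log2 fold change -1.86 ± 0.48, edgeR adjusted p = 0.0569). Cpne9 was at 19.4 and 23.5 CPM in Brn3b HET cells, against 48.1 and 40.6 CPM in Brn3a HET cells (-1.05 ± 0.32, edgeR adjusted p = 0.0774). Photoreceptor markers summed to 2350 to 3251 CPM in Brn3b HET cells, against 864 to 880.3 CPM in Brn3a HET cells, and RGC markers to 4769 to 6832 CPM, against 10548 to 11364 CPM. Their part was not tested.

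Between Brn3b KO and Brn3a KO cells 5 copines were called, 1 higher and 4 lower, against 36% of genes, 16.7% higher and 19.2% lower. Cpne4, Cpne5 and Cpne9 fell, with log2 fold changes of -2.19 ± 0.49, -1.28 ± 0.29 and -2.48 ± 0.33 (edgeR adjusted p = 0.00818, 0.00807 and 0.00113). Cpne8 fell as well (edgeR adjusted p = 0.00313), and its full-length forms had a log2 fold change of -2.65 ± 0.34 (edgeR adjusted p = 0.000952). Cpne5 was at 10.9 and 18.7 CPM in Brn3b KO cells, against 42.2 and 29.6 CPM in Brn3a KO cells. Cpne3 rose by 0.75 ± 0.22 (edgeR adjusted p = 0.0233), with 64.2 and 69.8 CPM in Brn3b KO cells, against 32.1 and 48.0 CPM in Brn3a KO cells. Cpne3 lost its call without Brn3a KO replicate 1 or either Brn3b KO library, Cpne5 without replicate 1 of either group, and Cpne4 without Brn3b KO replicate 1. Cpne3 also lost it with the compared groups alone (adjusted p = 0.0629). RGC markers summed to 1997 to 2311 CPM in Brn3b KO cells, against 8118 to 11355 CPM in Brn3a KO cells, with 17 of 18 lower and 1 higher. The list includes Pou4f1 and Pou4f2, the genes knocked out in these groups. Pou4f2 averaged 19.8 CPM in Brn3b KO cells, against 329 CPM in Brn3a KO cells, and Pou4f1 75.0 CPM, against 13.8 CPM. Microglia markers summed to 1241 to 1600 CPM in Brn3b KO cells, against 3963 to 4667 CPM in Brn3a KO cells, with 14 of 14 lower. Progenitor and Müller glia markers summed to 1515 to 3054 CPM in Brn3b KO cells, against 1020.1 to 1079.7 CPM in Brn3a KO cells, and cell cycle markers to 697 to 1798 CPM in Brn3b KO cells, against 311 to 347 CPM in Brn3a KO cells. Their part in the copine differences was not tested.

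In Brn3b AP-positive cells of either genotype, Cpne4 had the largest log2 fold change with age of the 9 copines. In Brn3b HET cells it was at 73.1 and 113 CPM at P3, against 6.10 and 1.36 CPM at E15, a log2 fold change of 4.65 ± 0.57 (edgeR adjusted p = 0.000479). Cpne6 was at 7.19 and 12.5 CPM at P3, against 0.941 and 0.489 CPM at E15, and rose by 3.79 ± 0.46 (edgeR adjusted p = 0.000469). Neither pair of groups overlapped. Cpne9 rose by 3.01 ± 0.35 and Cpne5 by 1.07 ± 0.29 on the log2 scale (edgeR adjusted p = 0.000397 and 0.0209), so 4 copines were higher at P3 and 1 lower, where 28.8% of genes were called, 16.6% higher and 12.3% lower.

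The copine that fell with age was Cpne1, a widely expressed member. It was at 4.89 and 5.27 CPM at P3, against 11.7 and 34.2 CPM at E15, a log2 fold change of -2.17 ± 0.48 (edgeR adjusted p = 0.00849). Cpne1 lies over Rbm12 and Gm28036 on the same strand, which averaged 3441 and 2631 estimated counts per retinal library, and Cpne7 lies within Gm20388 on the same strand, so the counts of both copines are uncertain. Without Brn3b HET E15 replicate 2, the library at 34.2 CPM, the Cpne1 call was lost at -1.20 (adjusted p = 0.0537), and also without Brn3b HET P3 replicate 1 (adjusted p = 0.0574). Cpne5 lost its call without Brn3b HET P3 replicate 2 or either E15 library. With the most abundant transcript Cpne1 was not called (adjusted p = 0.0772) and Cpne5 had the opposite sign (-0.55, adjusted p = 0.225). In Brn3b HET cells photoreceptor markers summed to 2350 to 3251 CPM at P3, against 268 to 362 CPM at E15, amacrine markers to 786 to 797 CPM at P3, against 159 to 177 CPM at E15, and microglia markers to 2645 to 3203 CPM at P3, against 909.8 to 1221 CPM at E15. RGC markers summed to 4769 to 6832 CPM at P3, against 7918 to 13465 CPM at E15. Their part in the differences by age was not tested.

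Brn3b KO cells differed between the ages in 4 copines, 3 higher and 1 lower at P3, against 25.4% of genes, 14.4% higher and 11.1% lower. Cpne4 was at 22.9 and 32.9 CPM at P3, against 0.919 and 0.428 CPM at E15 (log2 fold change 5.39 ± 0.64, edgeR adjusted p = 0.000445). Cpne9 and Cpne8 rose, at 2.66 ± 0.37 and 1.02 ± 0.23, and Cpne1 fell, at -1.71 ± 0.47 (edgeR adjusted p = 0.000945, 0.0108 and 0.0242). The Cpne1 call was lost without any 1 of the 4 libraries, and that of Cpne8 without P3 replicate 1 or E15 replicate 2. With the most abundant transcript Cpne1 and Cpne8 were not called (adjusted p = 0.156 and 0.152), and Cpne9 had the opposite sign (-0.25, adjusted p = 0.921). RGC markers summed to 1997 to 2311 CPM at P3, against 8097 to 9337 CPM at E15, and photoreceptor markers to 2828 to 4140.0 CPM at P3, against 294 to 313 CPM at E15, and their part was not tested. Split by transcript, the rise of Cpne8 was called for the short forms, at 1.05 ± 0.24 (edgeR adjusted p = 0.0119), and missed the threshold for the full-length forms, at 0.96 ± 0.33 (edgeR adjusted p = 0.0591).

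Unbound cells also differed by age, in 5 copines that were all higher at P3, where 33.1% of genes were called, 15.6% higher and 17.5% lower. Cpne7 was at 0.536 to 1.47 CPM at P3, against 0.113 and 0.0558 CPM at E15 (log2 fold change 3.69 ± 0.83, edgeR adjusted p = 0.00428), a low level throughout. Cpne6, Cpne4 and Cpne9 rose by 2.74 ± 0.41, 2.49 ± 0.58 and 1.27 ± 0.42 (edgeR adjusted p = 0.000284, 0.00530 and 0.0324). Cpne8 rose by 0.77 ± 0.22 as a gene (edgeR adjusted p = 0.0169). Its short forms rose by 1.36 ± 0.27 (edgeR adjusted p = 0.00209) and its full-length forms stood at -0.03 ± 0.32 (edgeR adjusted p = 0.954). Cpne7 lost its call without the E15 unbound Brn3b HET library, Cpne8 without that of Brn3b KO, and Cpne9 without either of them or the P3 Brn3b HET one. Cpne9 also lost it with a replicate block (1.12, adjusted p = 0.0677) and with the compared groups alone (adjusted p = 0.109). With the most abundant transcript Cpne7, Cpne8 and Cpne9 were not called (adjusted p = 0.345, 0.959 and 0.330). Photoreceptor markers summed to 2291 to 2737 CPM at P3, against 762 to 828 CPM at E15, and amacrine markers to 954 to 1180.3 CPM at P3, against 411 to 418 CPM at E15. RGC markers summed to 977 to 1788 CPM at P3, against 3052 to 4296 CPM at E15, and cell cycle markers to 1368 to 2357 CPM at P3, against 2807 to 3611 CPM at E15. Their part in the differences by age was not tested.

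At E15, Brn3b HET cells had 2 copines above unbound cells and none below, where 13.2% of genes were called, 9.35% higher and 3.84% lower. Cpne9 was at 3.17 and 2.17 CPM in Brn3b HET cells, against 0.567 and 0.781 CPM in unbound cells (log2 fold change 1.98 ± 0.46, edgeR adjusted p = 0.0153). Cpne8 was at 73.8 and 49.5 CPM in Brn3b HET cells, against 24.5 and 38.7 CPM in unbound cells (0.96 ± 0.25, edgeR adjusted p = 0.0239). Cpne4, at 6.10 and 1.36 CPM in Brn3b HET cells, overlapped the 1.67 and 4.19 CPM of unbound cells, unlike at P3. The Cpne9 and Cpne8 calls were lost without Brn3b HET replicate 1 or the unbound Brn3b KO library, and that of Cpne9 also without the other unbound library. With the compared groups alone neither was called (adjusted p = 0.188 for both), nor with the most abundant transcript (adjusted p = 0.467 for Cpne9 and 0.205 for Cpne8).

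Brn3b KO cells at E15 had Cpne6 higher and Cpne3 lower than unbound cells, where 23.8% of genes were called, 12.3% higher and 11.5% lower. Cpne6 was at 2.12 and 3.61 CPM in Brn3b KO cells, against 0.652 and 0.391 CPM in unbound cells (log2 fold change 2.45 ± 0.44, edgeR adjusted p = 0.00227). Cpne3 was at 42.4 and 49.7 CPM in Brn3b KO cells, against 66.1 and 83.4 CPM in unbound cells, and fell by 0.70 ± 0.20 (edgeR adjusted p = 0.0245). The Cpne3 call was lost without either Brn3b KO library or the unbound Brn3b HET library. With the compared groups alone neither gene was called (adjusted p = 0.0669 for Cpne6 and 0.0814 for Cpne3), and the most abundant Cpne6 transcript was not called (adjusted p = 0.0594). Both E15 comparisons share the same 2 unbound libraries.

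In the brain, both targets of RGC axons were compared first, and 4 copines differed. Against 10.2% of 15288 genes called between SC and LGN, 4.41% higher and 5.78% lower, Cpne5 was higher in SC, and Cpne7, Cpne8 and Cpne2 were lower. Cpne7 was at 38.6, 21.2 and 26.4 CPM in SC, against 98.4, 103 and 99.0 CPM in LGN, and fell by 1.80 ± 0.26 on the log2 scale (edgeR adjusted p = 0.00219). Cpne8 was at 40.6, 39.1 and 34.8 CPM in SC, against 79.3, 75.7 and 75.6 CPM in LGN (log2 fold change -1.01 ± 0.11, edgeR adjusted p = 0.000397). No SC library reached an LGN library in either gene. Tectal markers summed to 789 to 947 CPM in SC, against 157 to 195 CPM in LGN, and thalamic markers to 855 to 1079 CPM in SC, against 1820 to 2014 CPM in LGN, as the labels name the tissues.

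The Cpne8 difference between SC and LGN lay in the full-length forms. They were at 34.8, 33.5 and 27.7 CPM in SC, against 75.5, 70.9 and 70.6 CPM in LGN (log2 fold change -1.18 ± 0.11, edgeR adjusted p = 0.000256). Short forms made up 14.2% to 20.4% of Cpne8 counts in SC, against 4.78% to 6.55% in LGN, and their level did not pass the test (0.44 ± 0.28, edgeR adjusted p = 0.394).

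Cpne5 was at 86.8, 91.0 and 82.2 CPM in SC, against 55.6, 57.8 and 68.5 CPM in LGN, and rose by 0.51 ± 0.13 (edgeR adjusted p = 0.0402). Cpne2, whose retinal level was at most 5.45 CPM, was at 32.0, 29.5 and 37.7 CPM in SC, against 44.2, 48.7 and 58.3 CPM in LGN, and fell by 0.61 ± 0.14 (edgeR adjusted p = 0.0235). Both calls were near the threshold. Cpne5 lost its call without any 1 of 5 libraries, at log2 fold changes of 0.44 to 0.55. Cpne2 lost its call without any 1 of 4 libraries, at -0.49 to -0.63. The most abundant Cpne5 transcript was not called (0.28, adjusted p = 0.804). Cpne4 was at 111, 117 and 117 CPM in SC, against 95.0, 98.9 and 109 CPM in LGN, with no call.

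SC and LGN were each set against the remaining brain, which is the same pair of libraries in both. Cpne9 was at 30.1, 30.0 and 30.9 CPM in SC, and 44.0, 45.6 and 53.3 CPM in LGN, against 5.33 and 14.2 CPM in remaining brain. It was above the remaining brain in both targets, by 1.63 ± 0.32 in SC and 2.28 ± 0.33 in LGN (edgeR adjusted p = 0.0168 and 0.00222). Without SC replicate 2 the call of Cpne9 in SC was lost (adjusted p = 0.0543), as it was with the most abundant transcript (adjusted p = 0.113).

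Cpne6, the forebrain copine, was lower than the remaining brain in both targets. It was at 27.5, 31.0 and 18.5 CPM in SC, and 13.5, 16.5 and 13.4 CPM in LGN, against 64.1 and 39.7 CPM in remaining brain. It fell by 1.02 ± 0.25 in SC and 1.84 ± 0.25 in LGN (edgeR adjusted p = 0.0417 and 0.00188). The SC call was lost without any of the 3 SC libraries or remaining brain replicate 1 (adjusted p from 0.0656 to 0.198), with a replicate block (-0.89, adjusted p = 0.0669) and with the compared groups alone (adjusted p = 0.0701). The most abundant Cpne6 transcript was called in neither target (adjusted p = 0.682 in SC and 0.158 in LGN). Telencephalic markers summed to 12.3 to 18.1 CPM in SC and 49.0 to 69.1 CPM in LGN, against 481 to 520 CPM in remaining brain, and their part in the Cpne6 difference was not tested.

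In SC, 5 copines were called against the remaining brain, 3 higher and 2 lower, where 6.94% of genes were called, 3.19% higher and 3.75% lower. Besides Cpne9 and Cpne6 these were Cpne4 (0.54 ± 0.10) and Cpne5 (1.02 ± 0.16), which rose, and Cpne2, which fell by 0.90 ± 0.15 (edgeR adjusted p = 0.0115, 0.00483 and 0.00845). In LGN, 4 were called, 3 higher and 1 lower, where 10.9% of genes were called, 5.76% higher and 5.17% lower. Besides Cpne9 and Cpne6 these were Cpne8 (1.31 ± 0.12) and Cpne4 (0.35 ± 0.10), which rose (edgeR adjusted p = 0.000214 and 0.0489). The Cpne4 call in LGN was lost without any single library of either group, and that in SC without SC replicate 2 or remaining brain replicate 2 (adjusted p = 0.0502 and 0.0645). The Cpne4 call in LGN was also lost without the low-count filter, with the compared groups alone and with the most abundant transcript (adjusted p = 0.0613, 0.0885 and 0.119). The most abundant Cpne5 transcript was not called in SC (0.23, adjusted p = 0.875). The single PTA library had Cpne4 at 33.7 CPM and Cpne9 at 7.99 CPM, with no replicate.

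**Figure D5:**
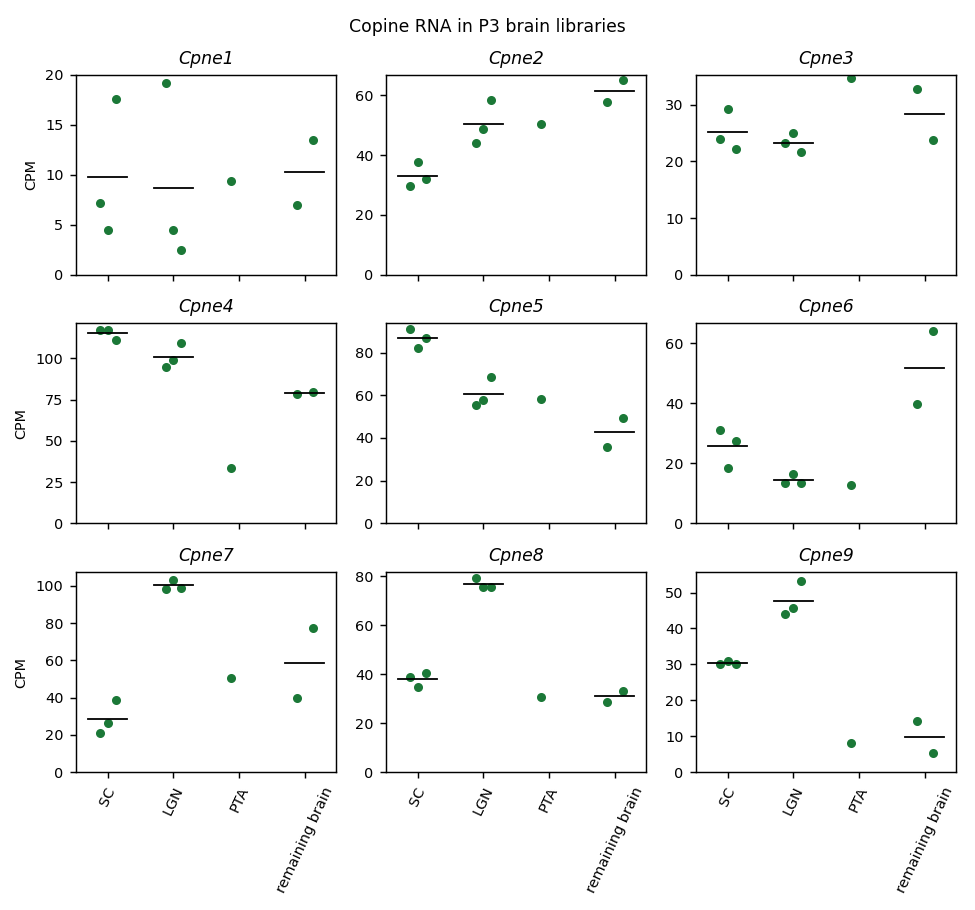
CPM of each copine in every brain library at P3. Points are libraries and lines are means of groups with 2 or 3 libraries. Cpne7 and Cpne8 were high in LGN, Cpne5 in SC, and Cpne6 in remaining brain, where its libraries were at 64.1 and 39.7 CPM.

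Among the 12 AP-positive libraries some copines varied together more closely than others. Pearson's r of log2(CPM + 1) was 0.98 between Cpne4 and Cpne9, 0.96 between Cpne5 and Cpne9, and 0.93 between Cpne8 and Cpne9. With Cpne9 it was 0.74 for Cpne6, 0.52 for Cpne7, -0.31 for Cpne2, -0.48 for Cpne1 and -0.49 for Cpne3. Cpne7 and Cpne2 were low, at most 2.12 and 5.45 CPM in these libraries. These libraries are 6 groups of 2 that differ in age, genotype and depth of RGC markers, so the values describe shared group differences and carry no test.

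The genes closest to each copine by the same r, among 11187 candidates, are given as a description. For Cpne4 they were Calb2, which encodes the calcium-binding protein calretinin, Adora1 and Aplp2, at 0.995, 0.994 and 0.993. For Cpne9 they were Kctd12 (0.995), Prrt2 (0.994) and Hpca, the gene of the calcium sensor hippocalcin (0.992). For Cpne8 they were Prkce, Nt5dc3 and Slc17a6, the vesicular glutamate transporter of RGCs, all at 0.987. Cpne5 was closest to Cyp2s1 (0.99), Ttc9 and Ahnak2 (both 0.98), and Cpne6 to Exoc8, Slc24a2 (both 0.92) and Dlg2 (0.90). Cpne3 was closest to Pdcd6ip (0.99), Crot and Gabpa (both 0.98). Cpne1, Cpne7 and Cpne2 were closest to Cpsf4 (0.94), Tmed7 (0.92) and Wdr62 (0.82).

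Other C2-domain proteins were counted beside the copines. Of 35 listed, 34 were tested in the retina, and 19 were higher and 4 lower in Brn3a HET cells than in unbound cells, with a median log2 fold change of 1.10, where 28.8% of all genes were higher, 27.7% lower and the median over all genes was -0.03. Synaptotagmins led: Syt13 rose by 3.28 ± 0.28 and Syt4 by 3.19 ± 0.30, and Syt1, the calcium sensor of transmitter release, by 1.66 ± 0.16 (edgeR adjusted p = 5.11e-07, 1.46e-06 and 1.67e-06). Between Brn3b KO and Brn3b HET cells at P3, 0 of 34 rose and 3 fell: Syt13 at -1.78 ± 0.32, Rasal1 at -3.24 ± 0.60 and Unc13c at -0.76 ± 0.17 (edgeR adjusted p = 0.0236, 0.0253 and 0.0470), where 0.264% of all genes rose and 3.15% fell. Between SC and LGN 7 of 35 were higher in SC and 12 lower, where 4.41% of all genes were higher and 5.78% lower.

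Of 12 symbols listed for binding partners of copines, 11 were tested in the retina. Rack1 and Gnb2l1, both listed, name the same gene. In Brn3a HET cells 5 were higher and 3 lower than in unbound cells, where 28.8% of all genes were higher and 27.7% lower. The partners' median log2 fold change was 0.12, against -0.03 over all genes. The called genes included Ntrk2, the BDNF receptor, at 2.31 ± 0.23, and Rdx, which encodes radixin, at -1.07 ± 0.15 (edgeR adjusted p = 2.20e-06 and 4.69e-05). Between Brn3b KO and Brn3b HET cells at P3, 1 of 11 rose, Bicd2 by 0.52 ± 0.11 (edgeR adjusted p = 0.0397), and 0 fell, against 3.41% of all genes called.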

How the data were processed

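Retinal RNA was sequenced single-end and brain RNA paired-end from stranded mRNA libraries, so both tissues were scaled and tested apart. The deposited values are estimated counts for each Ensembl transcript, not normalized between libraries, made with Trimmomatic 0.32, Bowtie2 2.2.1 and eXpress 1.3.1 on GRCm38.p3, per the submitters' processing notes. The deposited table also lists the GC content of each transcript in percent, as the file header names it, which was not used. Whether the counting used strand is not given in the sources used here. Transcripts were added up per gene and rounded to whole numbers. Tests were edgeR 4.0.16 quasi-likelihood tests (R 4.3.3) after TMM scaling and filterByExpr (minimum count 10). P-values were adjusted by Benjamini-Hochberg over all genes of a fit, and a call is an adjusted p under 0.05. One fit held the 18 retinal libraries (16954 genes, AP-positive against unbound), another the 12 AP-positive ones (16673 genes, genotype and age) and another the 9 brain ones (15288 genes). SE was taken as the size of the log2 fold change over the root of F. The code was tested on simulated data. Groups follow the titles, since source names of Brn3b and E15 samples give another gene or age. Alternatives were DESeq2 1.42.0, its scaling, no filter, the most abundant transcript, a replicate block, fits of the compared groups alone and leaving out each library. The Cpne8 split was added after its transcript shares were seen. All 9 copines are named, with up to 4 members of each related list by smallest adjusted p and up to 3 genes closest to a copine. Members, lists and tests were chosen with earlier results of these data known.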

Additional observations from a re-analysis of the deposited data

Results flagged for a closer look

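Cpne6 was at 4.65 CPM in the unbound P3 library of Brn3b KO retinas, against 3.01, 3.07 and 3.28 CPM in the other 3 unbound P3 libraries. The gap to the next library was a large part of the group's range, past Dixon's 95% critical value for 4 samples. Chance alone marks about 1 in 20 groups, and this test was run on each of the 9 copines in the unbound P3 group, which has more than 3 libraries. The Cpne6 calls in Brn3a HET and Brn3b HET cells over unbound cells include this library.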

How the results depend on the processing

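Size factors of DESeq2 in place of TMM left each count of called copines within 1.5 times the reported one. Shares over all genes are not set beside the counts of the other fits below. With DESeq2 the counts were 4 for Brn3b HET over unbound cells at E15, 4 for Brn3b KO over HET at P3, 4 at E15, 4 for Brn3b HET over Brn3a HET, and 1 for the interaction of age with Brn3b loss. With no filter they were 3 for Brn3b KO over HET at P3, 4 at E15, 1 for Brn3b HET over Brn3a HET and 1 for that interaction. With the compared groups alone in the fit they were 0 for Brn3b KO over unbound cells at P3, 0 and 0 for Brn3b HET and Brn3b KO over unbound cells at E15, 0 and 0 for Brn3b KO over HET at P3 and E15, and 4 for Brn3b HET over Brn3a HET. With the most abundant transcript in place of the gene sum they were 0 for Brn3b KO over unbound cells at P3, 0 and 1 for Brn3b HET and KO over unbound cells at E15, 2 for unbound cells by age, 0 for Brn3b KO over HET at E15, 1 for Brn3b KO cells by age, and 2 each for SC and LGN over remaining brain.

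Directions turned under that transcript choice for Cpne9 in Brn3b KO over unbound cells at P3 (-2.44) and in Brn3b KO cells by age (-0.25). They also turned for Cpne8 in unbound cells by age (-0.048). For Cpne5 they turned in Brn3b HET cells by age (-0.55) and in LGN over remaining brain (-0.049). For Cpne7 in Brn3b KO over unbound cells at E15 that transcript gave 0, which has no direction. The cause was not tested. Short Cpne8 forms had the opposite sign to the gene sum in Brn3a HET (-1.34), Brn3a KO (-0.67) and Brn3b HET (-0.82) over unbound cells at P3, in Brn3b KO over HET at P3 (0.66), Brn3b HET over Brn3a HET (0.54), Brn3b KO over Brn3a KO (0.52), SC over LGN (0.44) and LGN over remaining brain (-0.30), and full-length forms in unbound cells by age (-0.033).

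The labels do not say whether a replicate number marks an animal. In the brain titles, PTA apart, it follows a letter M that is not explained. Deviations of same-numbered libraries correlated at 0.09 and -0.01 for KO and HET of Brn3a and Brn3b at P3, 0.17 at E15, 0.20, 0.07 and 0.22 in SC and LGN, 0.11 and -0.02 in SC and remaining brain, and 0.17 and -0.004 in LGN and remaining brain. Not every pair was over 0.1, so libraries were not treated as paired, and a pairing in the brain remains possible. A replicate block gave 2 called copines for Brn3b KO over HET at E15, where the fit without it gave 1, and left the other counts within 1.5 times. It ended the calls of Cpne9 in unbound cells by age (1.12) and Cpne6 in SC over remaining brain (-0.89), and added calls of Cpne3 in Brn3b HET over unbound cells at E15 and in Brn3b KO cells by age, of Cpne9 in Brn3b KO over HET at E15, of Cpne6 in SC over LGN, and of Cpne7 in SC and in LGN over remaining brain.

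Leaving out 1 library at a time, called copines ranged over 5 to 6 and 3 to 5 for Brn3a HET and KO over unbound cells, 2 to 4 and 0 to 1 for Brn3b HET and KO over unbound cells at P3, 0 to 3 and 1 to 3 at E15, and 3 to 5 for unbound cells by age. They ranged over 0 to 0 for Brn3a KO over HET, 0 to 2 for Brn3b KO over HET at P3, 0 to 2 at E15, 0 to 0 for Brn3b HET over Brn3a HET, 2 to 5 for Brn3b KO over Brn3a KO, 3 to 5 and 2 to 3 for Brn3b HET and KO cells by age, 0 to 1 and 0 to 0 for the interactions with age and gene, 2 to 4 for SC over LGN, 2 to 5 for SC and 3 to 5 for LGN over remaining brain. With 2 libraries a group, a lone sample left in this way is assumed to vary like the other groups. For Brn3b KO over HET at P3 and Brn3b HET over Brn3a HET, each library left out also lowered the number of all genes called. Lost calls in those fits were not confined to copines. The ranges above have no shares over all genes set beside them. Low counts limit Cpne7 in the retina and Cpne4 at E15.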
